A study of Homo sapiens with 2 samples.

Results

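The clustered protocadherin genes on the long arm of chromosome 5 were examined in a list of genomic intervals in which chromatin immunoprecipitation of the histone demethylase LSD2 exceeded input in HepG2 cells. The members were the distinct intervals whose midpoint lay in chr5:139500000-141500000 (hg19), a region of 2000 kb. They numbered 311 of the 370863 distinct intervals in the list and 22624 on chromosome 5, and no member was filtered out. The alpha cluster (PCDHA, chr5:140165876-140391929) held 31 of them, the beta cluster (PCDHB, chr5:140430979-140627802) held 28 and the gamma cluster (PCDHG, chr5:140710252-140892546) held 12. The other 240 were taken as flanks, with 127 to the left of the alpha cluster, 95 to the right of the gamma cluster, 7 between alpha and beta and 11 between beta and gamma. The rule for members uses position alone, and the region was chosen with earlier results of these data known, so all values are given as a description.

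Clustered protocadherins are cadherin-like adhesion proteins of the cell surface, best known in neurons, where each cell uses its own combination of them and adjacent membranes recognise matching combinations. In the alpha and gamma clusters each gene begins at its own large variable exon with its own promoter, and every gene of the cluster is spliced to the same constant exons at the far end. Beta genes consist of a separate coding exon each and have no shared constant exons. The RefSeq gene table is on the GRCh38.p14 assembly and was used here only for names, order, shared ends and overlaps of genes. It lists 15 protein-coding alpha genes, from PCDHA1 to PCDHAC2, and all 15 share the same end. It lists 22 protein-coding gamma genes, from PCDHGA1 to PCDHGC5, and all 22 share the same end. It also lists 16 protein-coding beta genes, from PCDHB1 to PCDHB15, and 0 of these overlap another beta gene. SLC25A2, a mitochondrial ornithine carrier gene, and TAF7, which encodes a subunit of the general transcription factor TFIID, lie between the beta and gamma clusters. ZMAT2 is the nearest protein-coding gene before PCDHA1, and DIAPH1, an actin-nucleating formin gene, and HDAC3, a histone deacetylase gene, follow the gamma cluster. No gene was placed on an interval, since the table and the intervals are on different builds.

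HepG2 is an established line from a human liver tumour, and here it was cultured under standard conditions, in 25 mM glucose with 10% serum. LSD2, the product of KDM1B, removes methyl groups from histone H3 and was precipitated with a rabbit antibody raised against residues 26 to 822 of the recombinant protein. There was 1 LSD2 ChIP library and 1 input library, neither group had a replicate, and the sequencing depth of both is unknown here. No value could therefore be set against replicate error and no test was made. The intervals quoted below are 95% intervals that cover counting only and treat neighbouring intervals as independent.

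Intervals of the alpha and gamma clusters were listed many times each, and those of the beta cluster were not. The deposited list repeats some intervals as identical lines. Over all chromosomes, 10.1% of distinct intervals had 2 or more lines and 1.2% had 3 or more. In the alpha cluster 31 of 31 intervals had 3 or more lines (100.0%, 95% Wilson interval 89.0% to 100.0%), and in the gamma cluster 11 of 12 did (91.7%, 64.6% to 98.5%). In the beta cluster 0 of 28 did, which allows a share of up to 12.1% by the Wilson interval. The shares of the alpha and gamma clusters were above the 1.2% of the whole list. Line numbers of neighbours in these clusters were not independent, as described next, so their Wilson intervals give no measure of error there. Repeated intervals also stood side by side in the beta cluster and in the flanks. Wilson intervals of line shares given for those stretches may therefore be too narrow.

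In the alpha cluster the number of lines rose in steps from the left bound to the right and never fell. The leftmost interval, chr5:140179877-140180019, had 3 lines, and the 3 intervals from 140183928 to 140187884 had 4. The line number then reached 6 at 140205700, 8 at 140218119, 9 at 140223626 and 12 at 140247637. It was 13 for the 6 intervals from 140268128 to 140299280, 14 for the 6 from 140302537 to 140338952 and 15 for the 7 from 140349681 to 140379365. Of the 30 steps from an interval to its right neighbour, 8 went up, 22 stayed level and 0 went down. The highest number, 15, equals the number of alpha genes that share the same end in the gene table.

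The gamma cluster showed the same staircase with fewer intervals. Its leftmost interval, chr5:140715544-140715925, had 2 lines, and the next 5 intervals had 3, 3, 4, 5 and 6. After an interval-free stretch the numbers went on at 15 (chr5:140792041-140792236), 16 (chr5:140793928-140794076), 17 (chr5:140796313-140796744) and 18 (chr5:140815869-140816022). The 2 rightmost intervals, chr5:140869651-140869806 and chr5:140870254-140870409, had 21 lines each, the highest number in the whole list. Of 11 steps, 9 went up, 2 stayed level and 0 went down, and the largest step was from 6 to 15 lines. The highest number was 21, against 22 gamma genes that share the same end in the gene table.

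**Figure D1:**
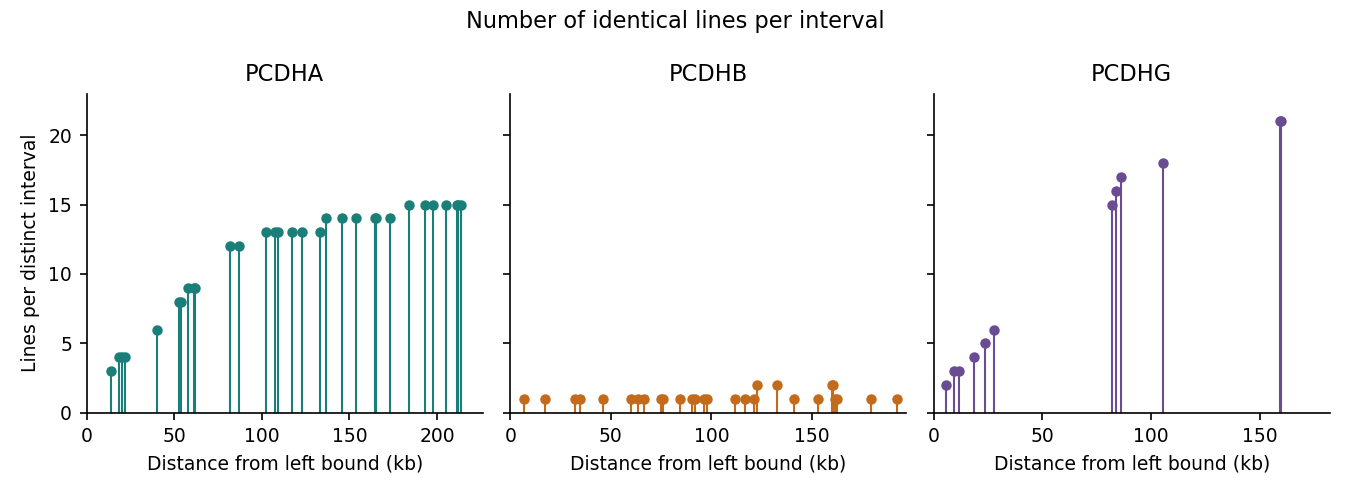
Number of identical lines per distinct interval (vertical axis) against distance from the left bound of the cluster in kb (horizontal axis), for the alpha, beta and gamma protocadherin clusters; each point is 1 interval. Line numbers climb from 3 to 15 in PCDHA and from 2 to 21 in PCDHG without a fall, and stay at 1 or 2 in PCDHB.

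In the beta cluster 24 of 28 intervals had 1 line and 4 had 2, which is 14.3% with 2 or more (5.70% to 31.5%) and includes the 10.1% of the whole list. The 4 lay between 140553331 and 140591346 with intervals of 1 line among them, so the line number went up 2 times and down 2 times along the cluster. Between the alpha and beta clusters the 7 intervals had 1 line each. The change at the right bound of the alpha cluster was abrupt, from 15 lines at chr5:140379207-140379365, the last interval inside, to 1 line at chr5:140402449-140402609, the first outside. At the right bound of the gamma cluster it went from 21 lines at chr5:140870254-140870409 to 1 line at chr5:140897536-140897683. At the left bounds the changes were small, from 1 line (chr5:140152782-140152937) to 3 for alpha and from 2 lines (chr5:140699912-140700064) to 2 for gamma. Whether each line stands for 1 overlapping gene model was not tested, since no annotation on hg19 was used here.

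Across the whole list, 27 intervals had 12 or more lines, and 21 of them lay in the alpha cluster and 6 in the gamma cluster. None lay elsewhere, where the highest line number was 11. The bound of 12 lines was chosen after these values were seen. With 7 or more lines there were 53 intervals, of which 26 were in the alpha cluster, 6 in the gamma cluster and 21 elsewhere, on 6 chromosomes.

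Counted as distinct intervals, the alpha and beta clusters were close to the list as a whole and the gamma cluster was sparse. The alpha cluster held 13.7 intervals per 100 kb (exact Poisson interval 9.32 to 19.5) and the beta cluster 14.2 (9.45 to 20.6), against 13.0 per 100 kb over all chromosomes and 12.7 over chromosome 5. The gamma cluster held 6.58 per 100 kb (3.40 to 11.5). The flanks together held 17.2 per 100 kb (15.1 to 19.5), with 19.1 (15.9 to 22.7) in the left flank and 15.6 (12.7 to 19.1) in the right. Intervals covered 3.42% of the alpha cluster, 2.83% of the beta cluster and 1.32% of the gamma cluster, compared with 5.10% of the left flank and 3.52% of the right flank. Read depth and DNA copy number along the region were not measured here.

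The gamma density was 0.383 times that of the flanks (exact interval of the ratio 0.195 to 0.681), 0.480 times that of the alpha cluster (0.224 to 0.961) and 0.463 times that of the beta cluster (0.214 to 0.940). The alpha density was 0.797 times that of the flanks (0.530 to 1.16) and the beta density 0.827 times (0.538 to 1.23), and alpha over beta was 0.964 (0.559 to 1.67). These 3 intervals include equal density, so over all widths neither cluster could be told apart from the flanks, or from the other, within counting error. Among intervals of at least 173 bp alone, beta held 3.56 per 100 kb, alpha 7.52 and the flanks 9.25. No interval of a ratio was computed there, so the statement does not extend to these wider intervals. The intervals of the 6 ratios are not adjusted for their number. Against the flanks within 250 kb of the clusters the gamma ratio was 0.455 (0.226 to 0.834).

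Consecutive windows of the same length as each cluster gave the wider setting, as a description and not a test. Of 15645 windows of 182 kb over all chromosomes, 15.0% held 12 or fewer intervals, as the gamma cluster did. The median window held 22, with quartiles of 16 and 30. The exact intervals of the density ratios above do not include this spread between windows. On chromosome 5, 90 of 972 windows, or 9.26%, held 12 or fewer. The 31 intervals of the alpha cluster compared with a median of 28 in 12604 windows of 226 kb, and the 28 of the beta cluster with a median of 24 in 14482 windows of 197 kb. The gamma cluster was thus low for its length but not extreme, and the alpha and beta clusters were ordinary in number.

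The ranking of the clusters turned over when every line was counted. The 355 lines of the alpha cluster came to 157 per 100 kb and the 131 lines of the gamma cluster to 71.9, against 23.7 in the flanks and 16.3 in the beta cluster. The order of density, from high to low, was flanks, beta, alpha, gamma with identical lines counted as 1 interval, and alpha, gamma, flanks, beta with every line counted. Counted as 1 interval, alpha was above beta with cluster bounds moved in by 10 kb (15.0 against 14.7 per 100 kb). It was also above beta among intervals of at least 173 bp (7.52 against 3.56). The gamma cluster therefore moved from the lowest density to above the flanks through repeated lines alone.

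**Figure D2:**
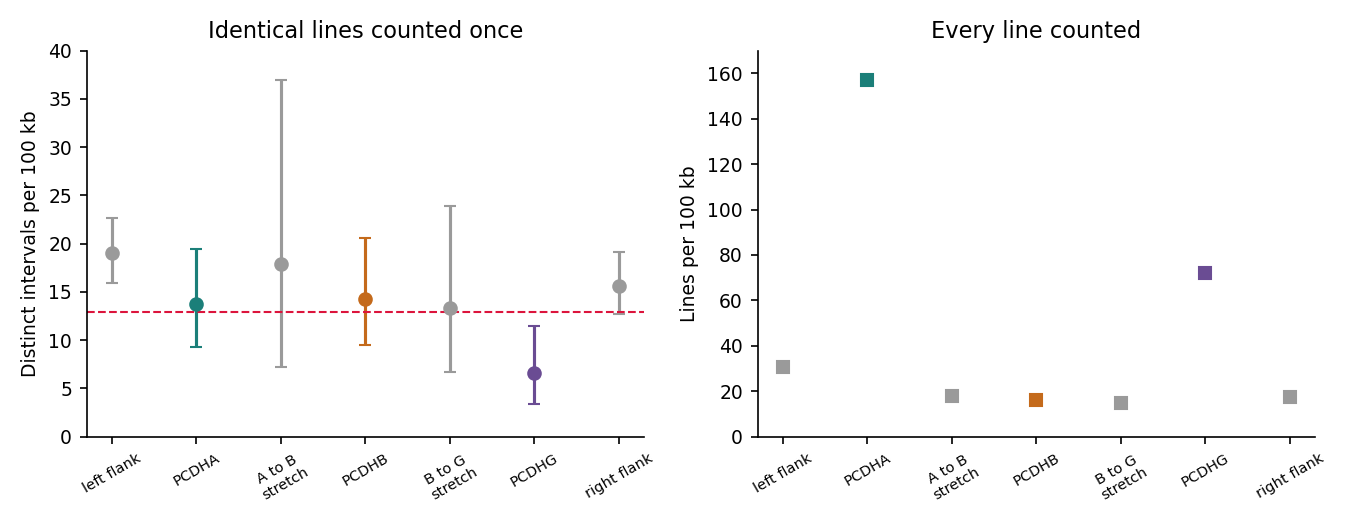
Left, distinct intervals per 100 kb (vertical axis) in each stretch of the region, with exact Poisson 95% intervals as bars and the mean over all chromosomes (13.0) as a dashed line; right, lines per 100 kb with every line counted. PCDHG has the lowest distinct density (6.58), while with every line counted PCDHA (157) and PCDHG (71.9) are the highest.

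The gamma intervals stood in 3 groups separated by long interval-free stretches. Among 5 equal segments of 36.5 kb from left to right, segment 1 held 6 intervals, segment 3 held 4 and segment 5 held 2, while segments 2 and 4 held 0. The stretches without an interval ran from 140738177 to 140792040 (53.9 kb) and from 140816023 to 140869650 (53.6 kb). Only 0.620% and 0.630% of the gaps in the whole list were as long, respectively. They were also the places where the line number jumped, from 6 to 15 and from 18 to 21. The median of the 11 gaps within the cluster was 4022 bp, with an interval of 1691 to 53628 bp. That interval includes the 4218 bp of the whole list but is too wide to show likeness.

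The alpha and beta clusters were evenly filled. The 5 equal segments of the alpha cluster, of 45.2 kb each, held 5, 7, 6, 6 and 7 intervals from left to right, and those of the beta cluster, of 39.4 kb each, held 4, 6, 7, 5 and 6. The longest gaps were 19.6 kb (from 140228017) and 17.8 kb (from 140187885) in the alpha cluster and 17.0 kb (from 140593434) and 14.6 kb (from 140448300) in the beta cluster, and 8.40% to 14.1% of all gaps were at least that long. Median gaps were 5262 bp (3264 to 7984 bp) in the alpha cluster and 5615 bp (2751 to 9845 bp) in the beta cluster. Gaps under 1 kb made up 17.4% of the whole list, 3 of 30 in the alpha cluster (10.0%, 3.46% to 25.6%), 5 of 27 in the beta cluster (18.5%, 8.18% to 36.7%) and 1 of 11 in the gamma cluster. These shares did not stand apart from the whole list at these numbers.

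**Figure D3:**
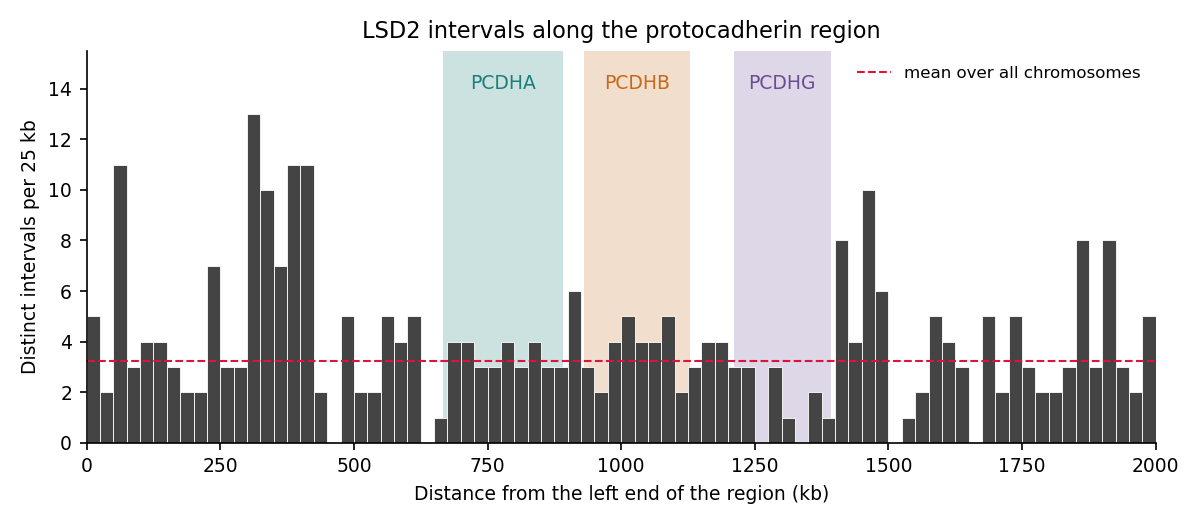
Distinct intervals per window of 25 kb (vertical axis) against distance from the left end of the region in kb (horizontal axis), with the 3 clusters shaded and the mean over all chromosomes as a dashed line. Windows of 10 or more intervals lie outside the clusters, and 2 of the 6 empty windows lie in PCDHG. Of all 80 windows, 21 lie wholly inside a cluster, 6 of these in PCDHG.

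Beta intervals were narrow, while the width of alpha intervals could not be told apart from that of the whole list within counting error. The median width was 152 bp in the beta cluster (order-statistic interval 149 to 161 bp) and 194 bp in the alpha cluster (154 to 334 bp), against 173 bp over the whole list. In the gamma cluster it was 157 bp (149 to 196 bp). Intervals under 170 bp made up 48.2% of the whole list, 71.4% of the beta cluster (20 of 28, 52.9% to 84.7%), 75.0% of the gamma cluster (9 of 12, 46.8% to 91.1%) and 45.2% of the alpha cluster (14 of 31, 29.2% to 62.2%). The share was also 71.4% between alpha and beta (5 of 7) and 72.7% between beta and gamma (8 of 11). It was 52.6% in the right flank and 37.8% in the left flank, so a high share was not particular to the clusters. The bound of 170 bp was not set in advance. The beta median was low for a stretch of this length, since only 1.87% of windows of 197 kb over all chromosomes had a smaller one. For the alpha cluster 77.6% of windows had a smaller median, and for the gamma cluster 12.5% did.

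Broad intervals, of 400 bp or more, made up 7.89% of the whole list. The alpha cluster had 5 of 31 (16.1%, 7.09% to 32.6%), the beta cluster 2 of 28 (7.14%, 1.98% to 22.6%) and the gamma cluster 1 of 12. The interval of each of the 3 shares includes the 7.89%. The widest in the alpha cluster were chr5:140252559-140253060 (502 bp, 12 lines), chr5:140205700-140206146 (447 bp, 6 lines) and chr5:140187454-140187884 (431 bp, 4 lines). In the beta cluster they were chr5:140490896-140491309 (414 bp, 1 line), chr5:140553331-140553735 (405 bp, 2 lines) and chr5:140593047-140593433 (387 bp, 1 line). The gamma cluster had chr5:140796313-140796744 (432 bp, 17 lines) and chr5:140715544-140715925 (382 bp, 2 lines), and its other 10 intervals were at most 196 bp wide.

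Within the alpha cluster more of the intervals of at least 300 bp lay to the left, with medians that overlapped within counting error. Median width in the 5 segments from left to right was 334, 350, 214.5, 179.5 and 159 bp. To the left of the midpoint of the cluster there were 8 of 15 intervals of at least 300 bp and a median of 334 bp (150 to 420 bp), and to the right of it there were 3 of 16 and a median of 162 bp (143 to 293 bp). Spearman's rho between width and position over the 31 intervals was -0.25. It was -0.16 in the beta cluster, -0.17 in the gamma cluster, 0.25 in the left flank and -0.04 in the right flank. Between alpha and beta it was -0.25 and between beta and gamma 0.14, so a value of this size was not particular to the alpha cluster. The bound of 300 bp, the split at the midpoint and these correlations were not set in advance. In the beta cluster the medians of the segments stayed between 147 and 158 bp. The 3 widest intervals had 4 to 12 lines, and the 7 intervals of 15 lines were 139 to 407 bp wide with a median of 159 bp.

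**Figure D4:**
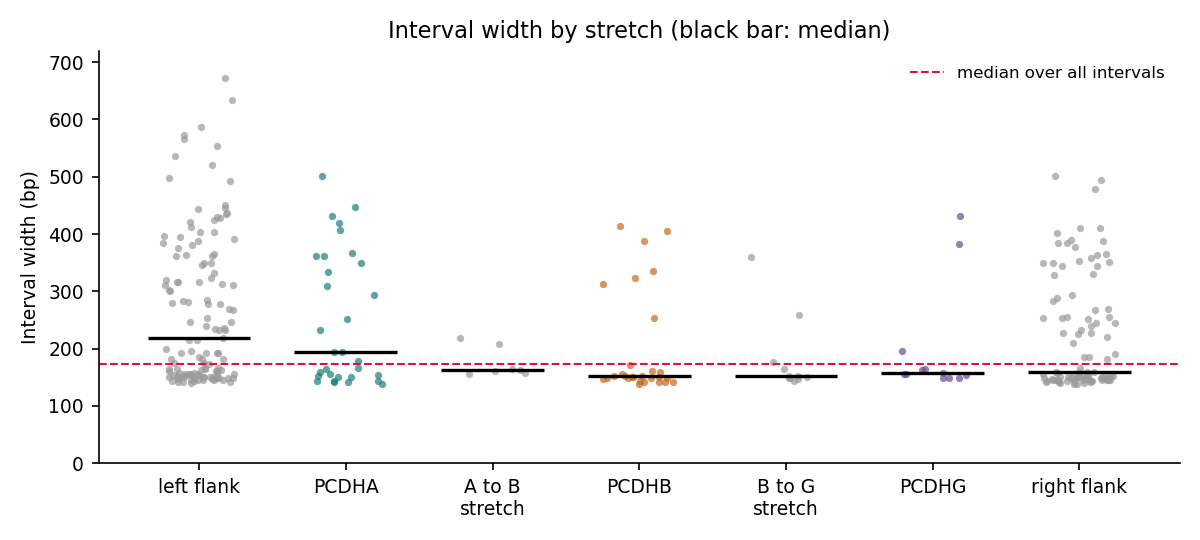
Width of every distinct interval in bp (vertical axis) in each stretch of the region, with the median of the stretch as a black bar and the median of the whole list (173 bp) as a dashed line; points are spread sideways for visibility. The left flank (median 218 bp) and PCDHA (194 bp) lie above the dashed line. PCDHB (152 bp), PCDHG (157 bp) and the other stretches lie below it.

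The flanks were not uniform, and the left flank held a block of repeated intervals that was denser and wider than the rest of it. From 139783981 to 139938143, a stretch of 154 kb, 57 successive intervals had 2 or 3 lines each, 51 of them 2 and 6 of them 3. The block was chosen after the values were seen, as the longest series of intervals with 2 or more lines in the left flank. That all its intervals were repeated follows from this choice. It held 37.0 intervals per 100 kb (28.0 to 47.9), with a median width of 285 bp (232 to 361 bp) and 15 of 57 intervals of 400 bp or more. Its longest series of gaps of at most 2 kb had 13 intervals, from 139818042 to 139829464. The rest of the left flank held 13.7 per 100 kb (10.7 to 17.3), with a median width of 169.5 bp (158 to 218 bp) and 14 of 70 intervals with 2 or more lines. Without the block the flanks together held 14.8 per 100 kb, and the ratio to them was 0.930 for alpha (0.614 to 1.37), 0.964 for beta (0.624 to 1.44) and 0.446 for gamma (0.226 to 0.799).

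Of the 80 windows of 25 kb in the region, the median window held 3 intervals, 6 held 10 or more and 6 held 0. Of the 6 fullest windows 4 lay wholly inside the block and 0 inside a cluster, and of the 6 empty windows 2 lay inside the gamma cluster. Of all 80 windows, 5 lay wholly inside the block and 21 inside a cluster, 6 of these in gamma. At these numbers the absence of full windows from the clusters says little. The fullest, from 139800001 to 139825000, held 13. The widest intervals of the region were in the left flank as well, at chr5:139828792-139829464 (673 bp, 2 lines), chr5:140098334-140098967 (634 bp, 1 line) and chr5:139906287-139906873 (587 bp, 2 lines), of which the second lies outside the block. The longest gap of the left flank, 43.3 kb from 140109472 to 140152781, ended at the last interval before the alpha cluster.

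The right flank had values of density, width and line number whose intervals include those of the whole list. It had 15.6 intervals per 100 kb and a median width of 160 bp (152 to 228 bp), and 11 of 95 intervals had 2 or more lines (11.6%, 6.59% to 19.6%), against 10.1%. It was fullest next to the gamma cluster, where segment 1 of 5, of 121 kb, held 29 intervals with a median width of 228 bp, compared with 14 to 21 in the other 4 segments. Its widest intervals were chr5:140959386-140959886 (501 bp), chr5:141368546-141369040 (495 bp) and chr5:140920407-140920884 (478 bp), with 1 line each. The gamma cluster, with 12 intervals over 182 kb, thus adjoined a stretch of 121 kb with 29. The 7 intervals between alpha and beta had a median width of 163 bp and the 11 between beta and gamma 153 bp, and 0 of these 18 reached 400 bp.

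At the outer ends of the region the nearest intervals were chr5:139501142-139501302 inside and chr5:139494899-139495110 outside on the left, and chr5:141486701-141486956 inside and chr5:141511327-141511483 outside on the right. All 4 had 1 line.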

How the data were processed

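The deposited list of peaks came from 1 LSD2 ChIP library and 1 input library of HepG2 cells, with groups taken from the source names. Per the file headers, the authors' reads were trimmed and cleared of duplicates, and MACS called peaks over input. The header gives 120 bp for both read and fragment length, 2700 Mb as effective genome size, 1e-05 as p-value cutoff and 32 as enrichment factor, with local biases detected. The submitters' processing notes name BWA and hg19, with versions not given in the sources used here. Each deposited line holds a start and an end in bases, with no score, height or depth.

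Starts were taken to count from 0, as in BED, and are printed counted from 1. The 414095 lines were reduced to 370863 distinct intervals, and the number of identical lines was kept. An interval was placed by its midpoint, and gaps were taken within a stretch. Density over all chromosomes used 2862 Mb, without peak-free stretches over 500 kb, and windows touching these were left out. Shares have Wilson intervals, counts exact Poisson intervals, medians order-statistic intervals and density ratios exact intervals conditional on the summed count. Intervals named are the 3 widest of a stretch, those with the most lines, the 2 longest gaps and the neighbours of each bound, and others were chosen after their values were seen. Interval numbers, median widths and highest line numbers by stretch, and the Poisson interval, were tested on simulated data. This checks the computation and not the deposited list, and the other descriptions were not tested so. The members and lists were chosen with earlier results of these data known. Python 3.11.15, numpy 2.4.6, pandas 2.3.3, scipy 1.17.1 and matplotlib 3.10.9 were used. Interval sequences, mappability and DNA copy number were not analysed here. The gene table served only for symbols, gene order, and shared ends and overlaps of genes within a cluster.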

Additional observations from a re-analysis of the deposited data

How the results depend on the processing

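Of 74 values under alternatives, 55 stayed within the 95% interval of the main value, and merging intervals up to 100 bp apart, placing by any overlap and moving cluster bounds in by 10 kb (the last chosen after seeing the data) moved none outside it. With every line counted, density per 100 kb was 157 in the alpha cluster, 71.9 in gamma and 23.7 in the flanks. With intervals of at least the median width of 173 bp, a set with fewer intervals, it was 7.52 in alpha, 3.56 in beta, 1.65 in gamma and 9.25 in the flanks. Median gaps there were 12639.5 bp in alpha, 27020.5 bp in beta and 5176 bp in the flanks, and 42.6% of flank intervals had 2 or more lines. The gamma median gap there was 40095.5 bp, against 4022 bp in the main setting. It counted as unmoved only because the gamma interval, 1691 to 53628 bp, is wide. Flanks within 250 kb held 14.5 per 100 kb, with 16.7% at 2 or more lines. The next 3 alternatives were chosen after seeing the data. Flanks without the block of repeated intervals had 14.8 per 100 kb, a median width of 163 bp and 14.2% at 2 or more lines. The left flank alone had 55.9% at 2 or more lines, and the right flank alone 11.6% and a median width of 160 bp. Causes beyond these constructions were not tested. Line counts and gaps were not recomputed with every line counted, since repeated lines have no gap. No paired analysis was possible because neither the ChIP nor the input was replicated. Depth is unknown, and a stretch without intervals may have had too few reads to pass the cutoff.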

Other observations

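The 43 intervals of the alpha and gamma clusters, 0.0116% of the distinct intervals in the list, carried 443 of its 43232 surplus lines (1.02%), a surplus line being any line of an interval beyond the first. The alpha cluster carried 324 of these and the gamma cluster 119.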
